A study of Mus musculus with 4 samples.

Results

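The MHC class I heavy chains and the genes that load peptide onto them were described in lung endothelial cells of mice after pneumonectomy (PNX), the surgical removal of part of the lung. The members are 10 genes of the 32285 in the count matrices, taken by symbol: the heavy chains H2-K1, H2-D1, H2-Q4, H2-Q6, H2-Q7, H2-T22 and H2-T23, the light chain B2m, the peptide transporter subunit Tap1 and the immunoproteasome subunit Psmb8. All 10 were measured in every library, and each passed the filter of 20 CPM (UMIs of a gene per 1000000 UMIs of the sum) used below in every library. Single-cell RNA profiles came from 4 libraries, 1 per group. Foxo1cKO PNX and M3cKO PNX held lung endothelial cells of mice with a conditional knockout of Foxo1 or of the gene labelled M3, taken on day 7 after PNX. WT PNX came from wild-type mice on day 7 after PNX, and sham from wild-type mice after a sham operation. The gene behind M3, the Cre driver, the strain, sex and age of the animals and the number pooled per library were not given in the sources used here. With 1 library per group there was no spread between animals and no test, and all intervals below are 95% intervals of counting error only.

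MHC class I molecules carry peptides from inside the cell to its surface, where CD8 T cells read them. A heavy chain pairs with the light chain beta-2 microglobulin (B2m), proteasomes cut the peptides, and the Tap1-Tap2 transporter moves them into the endoplasmic reticulum. H2-K1 and H2-D1 are the classical heavy chains of the mouse, while the Q and T genes encode mostly non-classical chains. Interferon-gamma, acting in part through IRF1 and the transactivator NLRC5, is the best known inducer of the whole set. Mouse class I heavy chains are highly polymorphic between strains.

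Of the 10 members, 9 lie on chromosome 17 and B2m lies on chromosome 2 (GRCm38). H2-K1 is at chr17:33996017-34000347 on the minus strand, with Tap1 at chr17:34187553-34197225 and Psmb8 at chr17:34197721-34201454, both on the plus strand. H2-D1 is at chr17:35262730-35267499, H2-Q4 at chr17:35379617-35385290, H2-Q6 at chr17:35424850-35430055 and H2-Q7 at chr17:35439155-35443773, all on the plus strand. H2-T23 is at chr17:36029773-36032855 and H2-T22 at chr17:36037128-36042747, both on the minus strand. B2m is at chr2:122147686-122153083 on the plus strand.

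The heavy chain promoters differ in which of the searched motifs they hold. The last 200 bases before the RefSeq transcript start (GRCm38.p6) are printed for 4 heavy chains, since H2-K1 and H2-D1 have nearly the same promoter but parted in level, and H2-Q7 and H2-T23 moved together with different promoters. Capitals mark GGGATTCCC, a kappa B-like element of class I promoters, and GAAANNGAA, a form of the core of an interferon response element, which in H2-T23 reads on the other strand. The windows are chr17:34000348-34000547 on the minus strand for H2-K1, chr17:35262894-35263093 on the plus strand for H2-D1, chr17:35438955-35439154 on the plus strand for H2-Q7 and chr17:36032702-36032901 on the minus strand for H2-T23.
H2-K1: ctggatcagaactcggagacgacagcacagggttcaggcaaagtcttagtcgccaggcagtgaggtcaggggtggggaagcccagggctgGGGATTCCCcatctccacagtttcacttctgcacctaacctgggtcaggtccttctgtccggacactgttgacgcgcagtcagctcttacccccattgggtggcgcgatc
H2-D1: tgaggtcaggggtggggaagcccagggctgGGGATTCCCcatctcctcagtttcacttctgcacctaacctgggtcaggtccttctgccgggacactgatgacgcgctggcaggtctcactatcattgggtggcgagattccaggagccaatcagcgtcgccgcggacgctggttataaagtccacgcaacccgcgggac
H2-Q7: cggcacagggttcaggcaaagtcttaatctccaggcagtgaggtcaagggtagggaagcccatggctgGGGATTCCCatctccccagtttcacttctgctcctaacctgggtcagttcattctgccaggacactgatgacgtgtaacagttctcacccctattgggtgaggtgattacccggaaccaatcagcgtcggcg
H2-T23: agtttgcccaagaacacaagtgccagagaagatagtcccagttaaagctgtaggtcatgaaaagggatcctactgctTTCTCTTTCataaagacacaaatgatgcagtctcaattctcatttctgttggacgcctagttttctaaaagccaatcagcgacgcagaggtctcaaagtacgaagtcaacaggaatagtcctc
When the 250 bases before each start were laid against each other without gaps at their best shift, H2-K1 and H2-D1 had the same base at 166 of 190 overlapping positions (87.4%). Searched on both strands in windows that reach from 250 bases before to 50 bases after the start, GGGATTCCC was found in H2-K1, H2-D1, H2-Q6 and H2-Q7, against 0.353% of all 32851 windows. It began at position -110 in H2-K1, -170 in H2-D1, -172 in H2-Q6 and -132 in H2-Q7, counted from the start. H2-Q4 held GGGANTTCC in its place, at -173, a motif found in 1.68% of windows. GAAANNGAA was found in H2-T22, H2-T23 and B2m, against 8.56% of windows. Only this exact pattern was searched for, so a member without a match can hold another form of an interferon response element. The printed windows of H2-K1, H2-D1 and H2-Q7 all hold cagtttcacttctgc, which the pattern cannot match. CCAAT was found in the 9 members other than Psmb8 and in 37.4% of windows. These matches describe the letters of the windows and say nothing of binding.

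Libraries held 7617 to 9266 barcodes and 16197681 to 30445999 unique molecular identifiers (UMIs, each a counted transcript). Endothelial cells were taken as cells with at least 2 UMIs over Pecam1, Cdh5, Cldn5, Egfl7, Ramp2 and Tie1 and none of Ptprc, Epcam, Col1a1 and Col1a2. This left 3811 cells in Foxo1cKO PNX, 2491 in M3cKO PNX, 3887 in WT PNX, against 4665 in sham, with sums of 6492399 to 13691550 UMIs. Pairs of libraries shared 68 to 111 barcode sequences, of which 0 had identical counts. Foxo1, the gene deleted in Foxo1cKO PNX, stood at 70.1 CPM there (interval 65.5 to 74.9), against 208 CPM in WT PNX (200.2 to 216). Markers of other cells were present in the endothelial sums, with no listed marker at 0. The 6 B cell markers summed to 410.5 CPM in Foxo1cKO PNX, 5079 in M3cKO PNX, 422 in WT PNX, against 996 in sham. Of these, the immunoglobulin gene Igkc alone stood at 154, 4583, 164 and 334 CPM in the same order. The class II gene Cd74, set out below, is also in this list. The 5 T cell markers summed to 70.1, 103, 44.6 and 20.8 CPM in the same order, and the 6 myeloid markers to 141, 141, 187 and 101 CPM. The 3 epithelial markers summed to 948, 204, 834 and 831 CPM in the same order of libraries. The 4 mural and fibroblast markers summed to 96.2, 11.1, 61.4 and 22 CPM, with Foxo1cKO PNX and WT PNX as the upper pair, and the 4 erythroid and platelet markers to 417, 461, 429 and 37.0 CPM, with sham alone low. The part of these lists in the results below was not tested. In such sums, a change in the make-up of the cells and a change in RNA per cell cannot be told apart.

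Class I transcripts were among the most abundant in lung endothelium, and their levels put the libraries into pairs. In all gated cells, M3cKO PNX and sham were the upper pair for 7 of the 10 members and the lower pair for H2-D1. The share of all genes that order the libraries in this way was not counted. Foxo1cKO PNX and WT PNX also held endothelial cells with Xist, set out below, while M3cKO PNX and sham held none without Y-linked transcripts. The pairs and this difference in the animals cannot be told apart. In male-type cells alone, set out below, the order did not hold for H2-K1, B2m and H2-T23. Levels below are CPM of the endothelial sum. H2-Q6 stood at 156 CPM in Foxo1cKO PNX, 453 in M3cKO PNX, 161 in WT PNX, against 532 in sham. H2-Q7 stood at 456, 1012, 401 and 1143 CPM in the same order. H2-T23, which encodes Qa-1, the ligand of the inhibitory CD94-NKG2A receptor, stood at 426, 642, 346 and 1107 CPM. In each of these 3 genes the lowest of M3cKO PNX and sham lay above the highest of Foxo1cKO PNX and WT PNX. H2-T22, a chain recognised by some gamma-delta T cells, followed the same order of pairs at 169, 254, 139 and 250.0 CPM. H2-K1 stood at 3857 CPM in Foxo1cKO PNX, 4018 in M3cKO PNX, 3541 in WT PNX, against 4571 in sham, a narrower range with the same pairs. H2-D1 went the other way, at 7291, 4116, 6696 and 4752 CPM in the same order of libraries. H2-Q4 did not pair in this way: it stood at 144, 165 and 168 CPM in Foxo1cKO PNX, M3cKO PNX and WT PNX, and at 292 CPM in sham.

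The light chain, the transporter and the proteasome subunit had these levels. B2m stood at 5532 CPM in Foxo1cKO PNX, 6149.7 in M3cKO PNX, 5627 in WT PNX, against 7236 in sham. Tap1 stood at 163, 186, 128 and 226 CPM in the same order. Psmb8, the LMP7 subunit of the immunoproteasome, stood at 255, 149.6, 272 and 253 CPM, with M3cKO PNX well below the others and sham within counting error of Foxo1cKO PNX. B2m and H2-D1 ranked among the 15 most abundant genes of each library, with B2m between rank 7 and rank 9. The share of cells with at least 1 UMI was 99.0% to 99.5% for B2m, against 31.0% to 34.2% for Tap1.

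**Figure D1:**
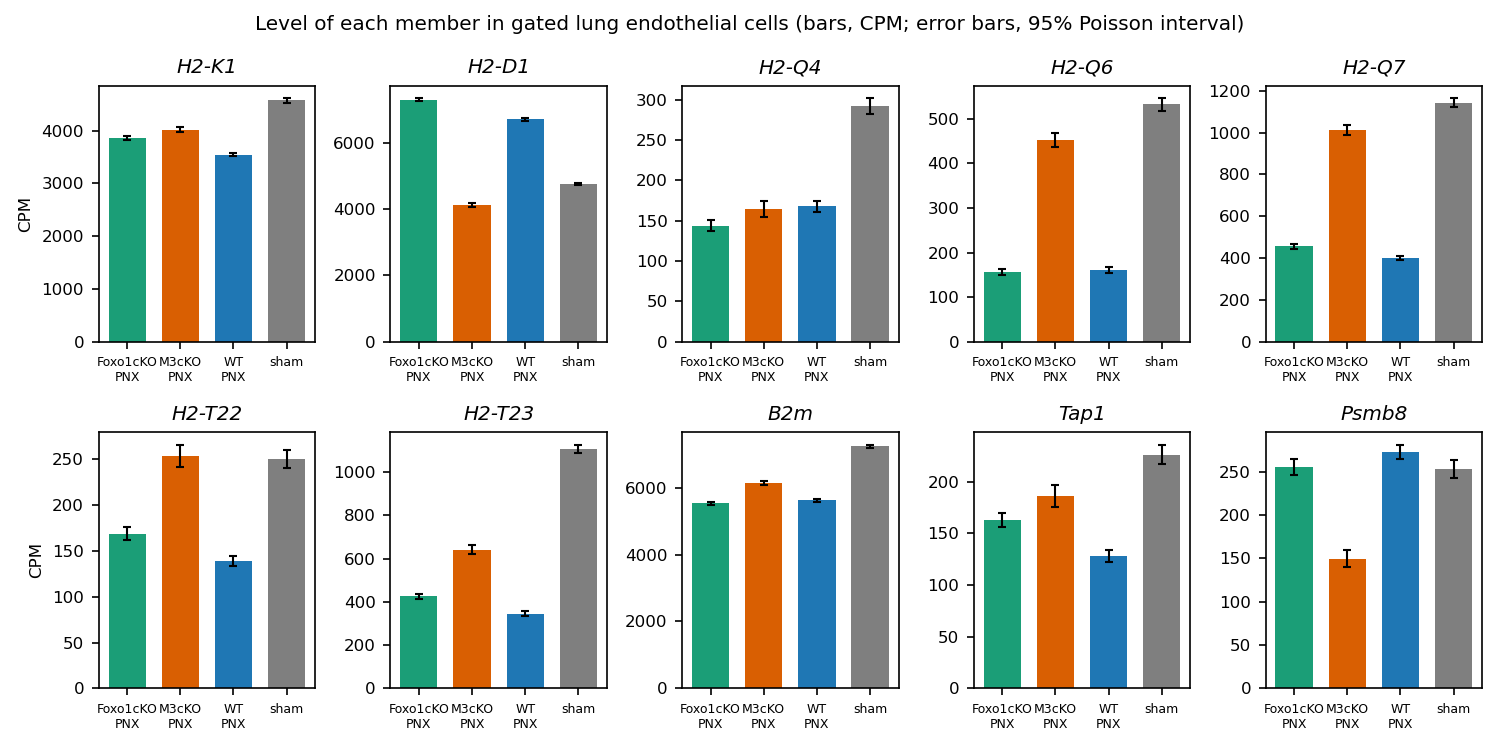
CPM of each member in the gated endothelial cells of the 4 libraries, with 1 panel per gene; bars are levels of 1 library each and error bars are 95% Poisson intervals. H2-Q6, H2-Q7, H2-T22 and H2-T23 stood higher in M3cKO PNX and sham, H2-D1 stood higher in Foxo1cKO PNX and WT PNX, and Psmb8 was lowest in M3cKO PNX.

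The first comparison set WT PNX against sham, that is, wild-type lungs on day 7 after PNX against sham-operated ones. A gene counted as higher or lower where CPM differed by at least 1.5-fold and the higher library had at least 20 CPM, a rule of size and not a test. Of the 10 members, 0 were higher in WT PNX, where 9.23% of the 7195 genes measured were higher. There were 6 members lower in WT PNX, where 6.50% of all genes were lower. The 6 were H2-Q4, H2-Q6, H2-Q7, H2-T22, H2-T23 and Tap1, and the median log2 ratio of the 10 was -0.81, against 0.04 over all genes measured. H2-Q6 was 3.30-fold lower in WT PNX (interval 3.14 to 3.47), H2-T23 3.20-fold lower (3.09 to 3.31) and H2-Q7 2.85-fold lower (2.76 to 2.94). H2-T22, Tap1 and H2-Q4 were 1.80-fold, 1.77-fold and 1.74-fold lower. The 4 members inside the fold were H2-K1 and B2m, each 1.29-fold lower, Psmb8 at a ratio of 1.08 and H2-D1 at a ratio of 1.41 (1.39 to 1.42).

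The second comparison set M3cKO PNX against WT PNX, both on day 7 after PNX. Of the members, 4 were higher in M3cKO PNX, where 6.31% of the 7159 genes measured were higher, and 2 were lower, where 11.4% of all genes were lower. With TMM scaling, which moved the median of all genes by 0.13 on the log2 scale, 9.31% of genes were higher and 7.25% lower. H2-Q6 was 2.81-fold higher (2.65 to 2.97), H2-Q7 2.52-fold higher (2.43 to 2.62), H2-T23 1.85-fold higher (1.78 to 1.93) and H2-T22 1.83-fold higher (1.71 to 1.95) in M3cKO PNX. H2-D1 was 1.63-fold lower (1.60 to 1.65) and lay inside the fold under TMM scaling at a ratio of 0.671, and Psmb8 was 1.82-fold lower (1.70 to 1.96). Tap1 had a ratio of 1.46, just under the fold, and passed it at 1.59 under TMM scaling, at 1.57 with at most 5% mitochondrial UMIs and at 1.63 in male-type cells. Of the rest, H2-K1 and B2m had ratios of 1.13 and 1.09 and H2-Q4 of 0.981. Set against sham, M3cKO PNX had ratios of 1.01 for H2-T22, 0.885 for H2-Q7 and 0.851 for H2-Q6. Against sham it was lower for H2-T23 at 0.580, for Psmb8 at 0.591 and for H2-Q4 at 0.564. WT PNX stands in both comparisons, so the 2 sets of ratios are not independent. The heat-shock genes Hspa1a and Hspa1b, between Psmb8 and H2-D1 on chromosome 17, moved with M3cKO PNX. Hspa1a stood at 95.8 CPM in Foxo1cKO PNX, 643 in M3cKO PNX, 81.6 in WT PNX, against 217 in sham. Hspa1b stood at 168, 1356, 138 and 446 CPM in the same order. Their part in the result, and that of the B cell markers above, was not tested.

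The third comparison set Foxo1cKO PNX against WT PNX. No member passed the fold: 0 were higher, where 0.734% of the 7086 genes measured were higher, and 0 were lower, where 0.875% were lower. Ratios ran from 0.858 for H2-Q4 (0.806 to 0.913) to 1.27 for Tap1 (1.19 to 1.36). H2-T23 was at 1.23, H2-T22 at 1.22, H2-Q7 at 1.14 and H2-Q6 at 0.968. H2-K1 and H2-D1 were at 1.09 each, B2m at 0.983 and Psmb8 at 0.937. The median log2 ratio of the 10 was 0.12, against -0.01 over all genes measured. Type I interferon-stimulated genes did differ between these libraries: 10 of the 17 measured were higher in Foxo1cKO PNX and 0 lower. Ifit1, an interferon-induced binder of foreign RNA, stood at 129.7 CPM in Foxo1cKO PNX, against 66.8 CPM in WT PNX.

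The counted heavy chain transcripts differed between libraries in make-up more than in amount. The 7 heavy chains summed to 12499 CPM in Foxo1cKO PNX, 10659 in M3cKO PNX, 11452 in WT PNX, against 12647 in sham. H2-K1 and H2-D1 together gave 89.2% of these UMIs in Foxo1cKO PNX, 76.3% in M3cKO PNX, 89.4% in WT PNX, against 73.7% in sham. Per B2m UMI there were 2.26, 1.73, 2.04 and 1.75 heavy chain UMIs in the same order. Heavy chain sequence is shared between genes, so reads can be split between them or dropped. Of all 90-base windows of the longest GENCODE coding transcript, 0.131% of those of H2-K1 and 5.46% of those of H2-D1 occurred in another gene. The share was 18.1% for H2-Q7 and 13.2% for H2-Q6, each shared mostly with the other, 18.1% for H2-T22 (with H2-T10), 9.11% for H2-T23 and 4.40% for H2-Q4. It was 0 for B2m, Tap1 and Psmb8. Over the last 500 bases the share was 0 for H2-K1, H2-D1 and H2-Q7, 9.49% for H2-Q4, 10.9% for H2-Q6, 13.4% for H2-T23 and 26.5% for H2-T22. The levels of the Q and T genes are uncertain for this reason, and how far was not measured. All heavy chain counts also rest on alignment to the mm10 genome, and the strain was not given. How far alleles that differ from that genome change the counts was not measured.

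The ratio of H2-D1 to H2-K1 UMIs inside a library is free of the scaling between libraries, and it split them into the same pairs. The levels above, with H2-K1 higher and H2-D1 lower in M3cKO PNX and sham, fix these pairs in all endothelial cells, so they are no further result. The ratio is used here only to set libraries side by side. In all endothelial cells it was 1.89 in Foxo1cKO PNX (interval 1.87 to 1.91), 1.02 in M3cKO PNX (1.01 to 1.04), 1.89 in WT PNX (1.87 to 1.91), against 1.04 in sham (1.03 to 1.05). Cell by cell, among cells with at least 10 UMIs of both genes together, the median share of H2-D1 was 66.7% in Foxo1cKO PNX and 66.2% in WT PNX, while M3cKO PNX and sham were both at 50%. The quartiles were 57.9% and 74.1% in Foxo1cKO PNX, 40.9% and 60.4% in M3cKO PNX, 57.8% and 73.5% in WT PNX and 41.4% and 60.0% in sham. The lower quartile of each library of the upper pair thus lay above the median of each library of the lower pair.

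The split was present in every class of cell with enough cells. Endothelial classes were set by marker UMIs: aerocytes and general capillary cells (gCap), the 2 capillary types of the lung, and arterial, venous, lymphatic and cycling cells. Markers left out of the gates were highest in the class of their name for aerocyte-like (Kdr, Emp2, Prx), arterial-like (Sox17, Efnb2, Hey1) and lymphatic-like cells (Flt4, Pdpn, Nts), and for 2 of 3 in gCap-like cells (Kit and Lpl but not Ptprb). Of the venous markers, Nr2f2 and Lyve1 were higher in lymphatic-like cells and Vcan was near 0, so the venous class rests on its gate genes. The H2-D1 to H2-K1 ratio in gCap-like cells was 1.92 in Foxo1cKO PNX, 1.01 in M3cKO PNX, 1.89 in WT PNX, against 0.963 in sham. In aerocyte-like cells it was 1.99, 1.34, 2.16 and 1.35 in the same order, in arterial-like cells 2.08, 1.15, 2.07 and 0.972, and in venous-like cells 2.14, 1.11, 2.09 and 1.07. In lymphatic-like cells it was 1.84, 1.16, 1.71 and 1.19, and in cycling cells 1.52, 0.835, 1.66 and 0.845. Both libraries of one pair exceeded both of the other in 6 of 6 endothelial classes, which are parts of the same libraries.

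Immune cells that came through the CD45 depletion showed the same order. In B cells the ratio was 1.45 in Foxo1cKO PNX, 0.982 in M3cKO PNX, 1.59 in WT PNX, against 1.14 in sham. In T cells it was 1.30, 0.776, 1.36 and 0.804 in the same order, and in myeloid cells 2.86, 2.03, 2.82 and 1.39. In sham these rest on 63 B cells, 67 T cells and 42 myeloid cells. Natural killer cells, at 0 to 16 per library, were too few to use.

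**Figure D2:**
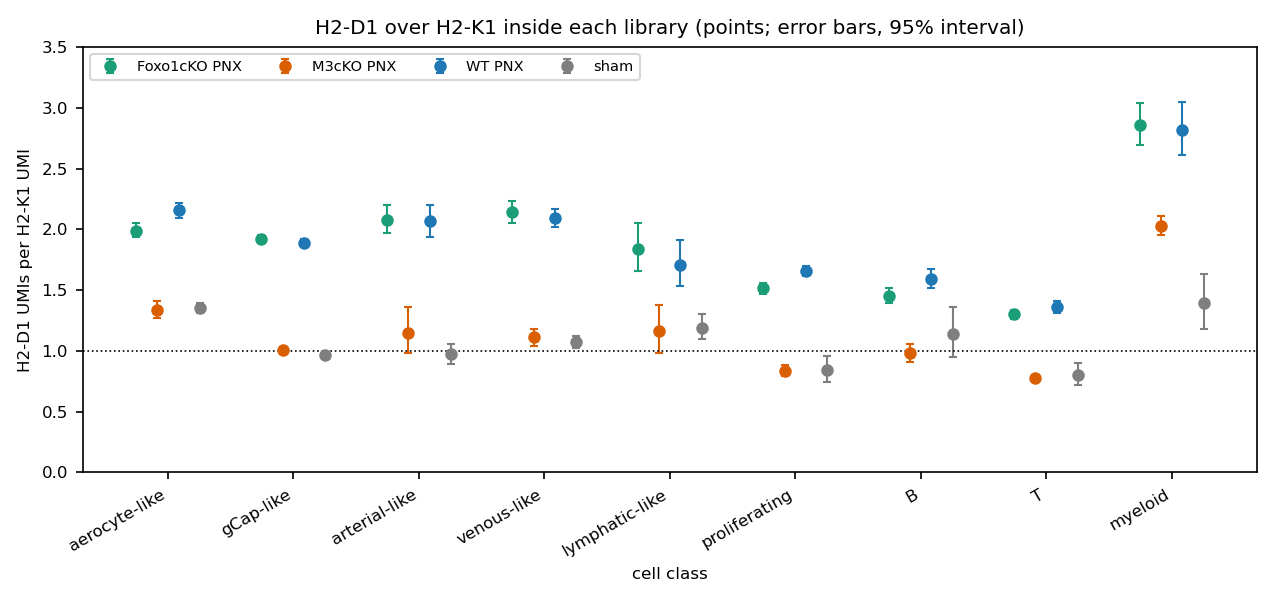
H2-D1 UMIs per H2-K1 UMI (vertical axis) in each cell class, with 1 point per library and 95% intervals of counting error. In the 6 endothelial classes and in B, T and myeloid cells, Foxo1cKO PNX and WT PNX lie above M3cKO PNX and sham.

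In WT PNX against sham, H2-Q6, H2-Q7 and H2-T23 lay further from sham in each endothelial class than in B or T cells. Myeloid cells did not follow this: there the ratio of H2-T23 was 0.398, lower than the 0.427 of aerocyte-like cells, and that of H2-Q7 was 3.13, with 42 myeloid cells in sham. In this comparison H2-Q4, H2-Q6, H2-Q7, H2-T22, H2-T23, Tap1, H2-K1 and B2m each had a ratio below 1 in 6 of 6 endothelial classes. The share of all genes below 1 in every class was not counted. The classes are parts of the same libraries, so a difference between libraries can recur in each. H2-Q6 was 3.07-fold to 5.79-fold lower over those classes, H2-T23 2.34-fold to 4.96-fold lower and H2-Q7 2.29-fold to 4.33-fold lower, with H2-Q6 and H2-T23 furthest apart in lymphatic-like cells. H2-D1 had a ratio above 1 in 5 of 6 endothelial classes and in 3 of 3 immune classes, where it ran from 1.56 to 1.92; lymphatic-like cells were the exception at 0.898 (0.822 to 0.982). B2m parted between the 2 kinds of cell, at 0.620 to 0.932 in the endothelial classes and 1.12 to 1.28 in B, T and myeloid cells.

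In M3cKO PNX against WT PNX, H2-D1 had a ratio of 0.583 to 0.688 in the 6 endothelial classes and 0.541 to 0.644 in the 3 immune classes. Psmb8 had ratios of 0.469 to 0.684 and 0.275 to 0.469 in the same 2 sets. H2-Q6 was above 1 in 6 of 6 endothelial classes at 1.69 to 4.33, H2-Q7 at 2.10 to 3.61, H2-T22 at 1.38 to 2.79 and H2-T23 at 1.34 to 2.63. In the immune classes H2-Q6 was above 1 in 3 of 3, H2-T22 and H2-T23 in 2 of 3 and H2-Q7 in 1 of 3. Here too the classes are parts of the same libraries, and the share of all genes with the same direction in every class was not counted. In Foxo1cKO PNX against WT PNX, H2-T23 and H2-T22 stood furthest from 1 in lymphatic-like cells, at 2.56 (1.81 to 3.64) and 2.38 (1.51 to 3.80), from 76 cells of Foxo1cKO PNX and 80 of WT PNX.

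Among the endothelial classes, the median over the 4 libraries was lowest in lymphatic-like cells for the 9 members other than H2-T22. H2-K1 ranged over the libraries from 1299.7 to 2413 CPM there, against 3843 to 5232 CPM in gCap-like cells and 3297 to 4348 CPM in aerocyte-like cells. B2m ranged from 2524 to 4072 CPM in lymphatic-like cells, 5756 to 7749 CPM in gCap-like cells and 7075 to 7663 CPM in aerocyte-like cells. The gCap-like and aerocyte-like ranges overlap in both genes. H2-Q7 was higher in gCap-like cells, at 483 to 1421 CPM, with an overlap with the 273 to 653 CPM of aerocyte-like cells. Over 24 sums of a class in a library, the genes whose log2 level was most like that of the summed heavy chains were Myl12b (r = 0.92), Adrb1 (r = 0.92), Lcp1 (r = 0.91) and Arhgef15 (r = 0.89), of 3606 compared. Rnf213, Nckap5, Casz1 and Sema3c followed at r = 0.88 each. These points share libraries and classes, and Sema3c is one of the genes of the gCap gate.

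**Figure D3:**
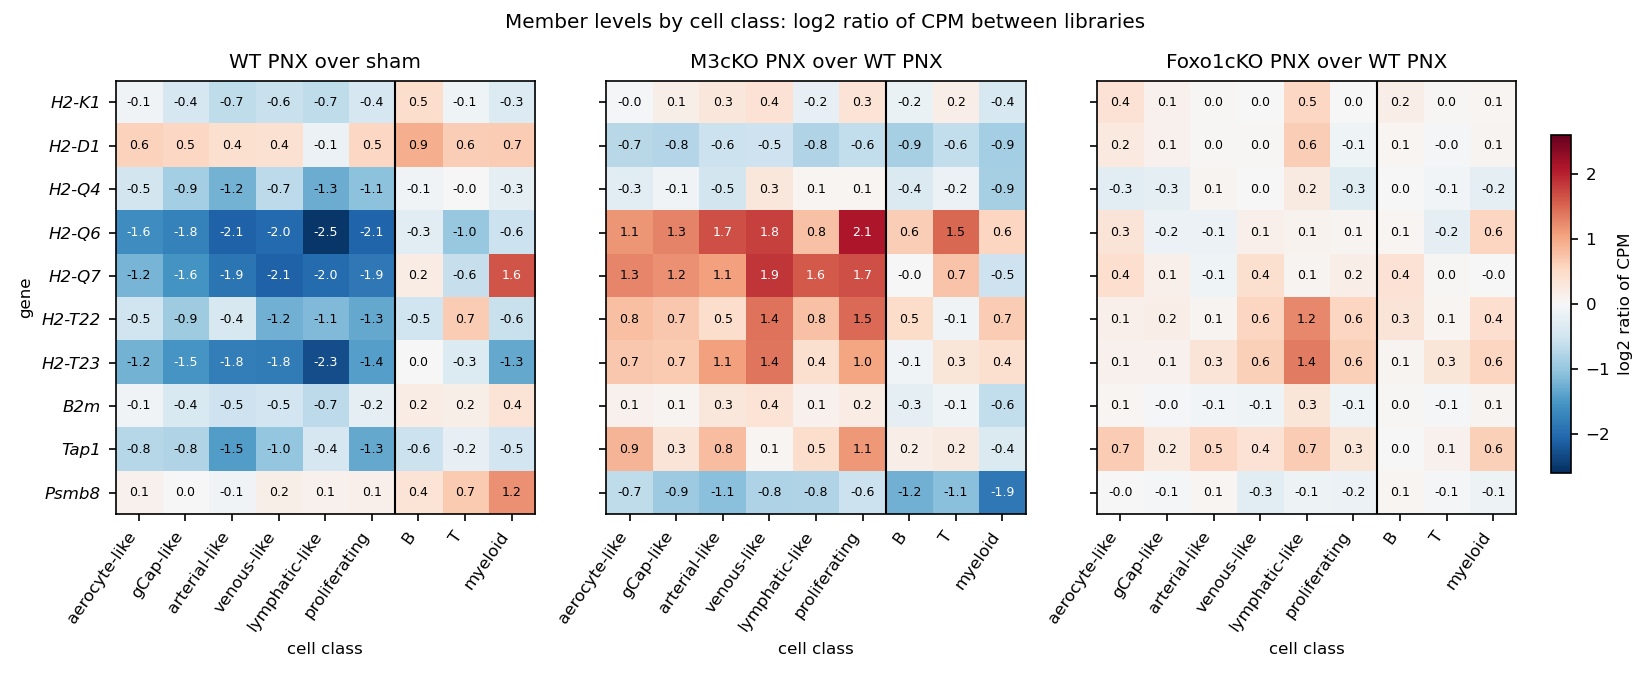
Log2 ratio of CPM between libraries (colour and printed value) for each member (down) in each cell class (across) in the 3 comparisons; the vertical line parts endothelial from immune classes. H2-Q6, H2-Q7 and H2-T23 are below 0 in WT PNX over sham and above 0 in M3cKO PNX over WT PNX in the 6 endothelial classes, and H2-D1 and Psmb8 are below 0 in M3cKO PNX over WT PNX in all 9 classes.

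The Foxo1cKO PNX and WT PNX libraries each held cells with Xist and cells with Y-linked transcripts. Between these 2 types of cell, 7 of the 10 members differed in opposite directions in the 2 libraries. The share of all genes that did so was not counted. Cells with a UMI of Xist, transcribed from the inactive X, and none of 4 Y-linked genes were called female-type, and the converse male-type. Female-type endothelial cells numbered 932 in Foxo1cKO PNX, 0 in M3cKO PNX, 938 in WT PNX, against 0 in sham. Male-type cells numbered 574, 761, 798 and 1196 in the same order. The 2 types in a library come from different animals, and the rest of the cells carried neither transcript or both.

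In Foxo1cKO PNX, H2-T23 stood at 229.7 CPM in female-type cells and 624 CPM in male-type cells, a ratio of 0.368 (0.338 to 0.401). In WT PNX it stood at 503 CPM in female-type and 172 CPM in male-type cells, a ratio of 2.93 (2.68 to 3.20). The same reversal was found in H2-Q6, H2-Q7 and H2-T22. In Foxo1cKO PNX, female-type over male-type ratios were 0.487 for H2-Q6 (97.6 against 200.5 CPM), 0.494 for H2-Q7 (303 against 613 CPM) and 0.476 for H2-T22 (112 against 235 CPM). In WT PNX they were 1.65 for H2-Q6 (192 against 117 CPM), 1.44 for H2-Q7 (461 against 320.4 CPM) and 1.42 for H2-T22 (169 against 119 CPM). H2-D1 ran the other way, with a ratio of 1.18 in Foxo1cKO PNX (7455 against 6329 CPM) and 0.790 in WT PNX (5657 against 7164 CPM). H2-K1 was below 1 in both, at 0.884 in Foxo1cKO PNX and 0.968 in WT PNX.

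The H2-D1 to H2-K1 ratio showed it in every class with 20 or more cells of each type. In endothelial cells of Foxo1cKO PNX it was 2.12 in female-type and 1.59 in male-type cells, while in WT PNX it was 1.71 in female-type and 2.10 in male-type cells. In B cells it was 1.80 in female-type and 1.21 in male-type cells of Foxo1cKO PNX, against 1.30 and 1.94 in WT PNX. In T cells it was 1.45 in female-type and 1.12 in male-type cells of Foxo1cKO PNX, against 1.17 and 1.65 in WT PNX. H2-T23 also reversed in lymphocytes: B cells of Foxo1cKO PNX had 360.4 CPM in female-type and 664 CPM in male-type cells, and those of WT PNX had 605 and 332 CPM. In gCap-like cells alone, H2-T23 stood at 244 CPM in female-type and 696 CPM in male-type cells of Foxo1cKO PNX, and at 567 and 185 CPM in WT PNX. The class II gene H2-Eb1 followed the same order, at 13.6 CPM in female-type and 88.3 CPM in male-type endothelial cells of Foxo1cKO PNX and at 99.4 and 18.1 CPM in WT PNX.

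**Figure D4:**
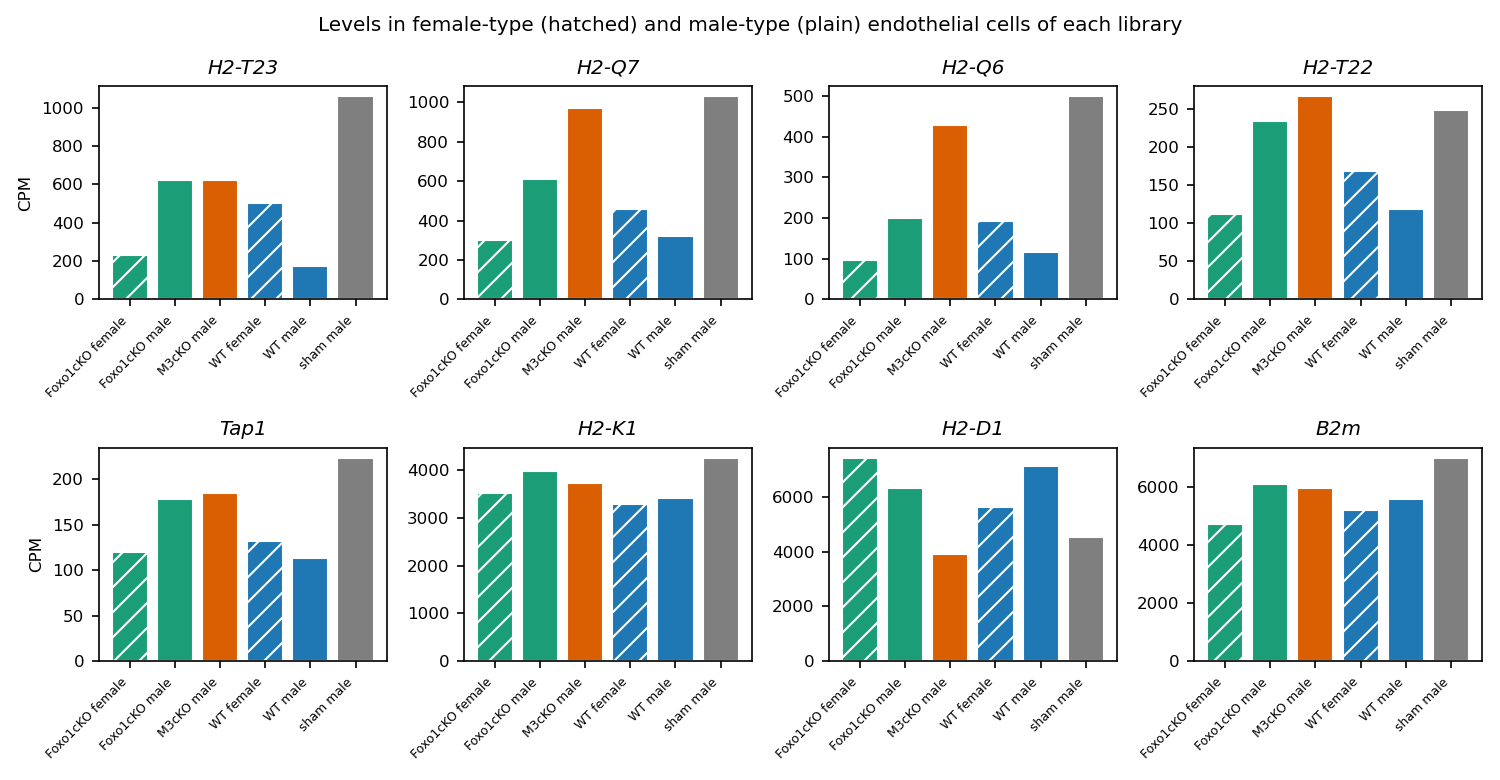
CPM of 8 members in female-type (hatched) and male-type (plain) endothelial cells of each library, with 1 panel per gene. H2-T23 is lower in female-type than in male-type cells of Foxo1cKO PNX (229.7 and 624 CPM) and higher in those of WT PNX (503 and 172 CPM).

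The comparison of Foxo1cKO PNX with WT PNX depended on which cells were taken. In male-type cells alone, 5 members were higher in Foxo1cKO PNX, where 3.38% of the 7186 genes measured were higher, and 0 were lower, where 2.52% were lower. The 5 were H2-T23 at 3.63-fold, H2-T22 at 1.97-fold, H2-Q7 at 1.91-fold, H2-Q6 at 1.72-fold and Tap1 at 1.58-fold. In female-type cells alone, 0 were higher, where 2.47% of the 7178 genes measured were higher, and 4 were lower, where 3.32% were lower. The 4 were H2-T23 at a ratio of 0.457, H2-Q6 at 0.508, H2-Q7 at 0.657 and H2-T22 at 0.660. For these 4 genes the ratio in all cells lay between those of the female-type and the male-type cells. Sex, genotype and animal cannot be told apart in these libraries. In WT PNX against sham and in M3cKO PNX against WT PNX, only WT PNX held female-type cells, so these comparisons also differ in the animals.

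The other comparisons kept their direction in male-type cells for the members named here. In WT PNX against sham, male-type cells had ratios of 0.162 for H2-T23, 0.234 for H2-Q6, 0.310 for H2-Q7 and 1.58 for H2-D1. In M3cKO PNX against WT PNX they had ratios of 3.67 for H2-Q6, 3.61 for H2-T23, 3.03 for H2-Q7 and 2.25 for H2-T22. H2-T23 thus ranged in male-type cells over 624 CPM in Foxo1cKO PNX, 621 in M3cKO PNX, 172 in WT PNX, against 1060.4 in sham. H2-K1 stood at 3984, 3729, 3408 and 4264 CPM in male-type cells in the same order, and B2m at 6091, 5961, 5563 and 6992 CPM. For these genes Foxo1cKO PNX did not lie below M3cKO PNX in male-type cells, unlike in all gated cells.

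The rest of the pathway was read against the same shares of all genes. Of 11 further genes of peptide supply and loading, 2 were lower and 0 higher in WT PNX against sham, where 6.50% of all genes were lower and 9.23% higher. Tap2, the partner of Tap1, stood at 44.3 CPM in WT PNX, against 78.1 CPM in sham. Psmb10, the MECL-1 subunit of the immunoproteasome, stood at 94.8 CPM in WT PNX, against 158 CPM in sham. In M3cKO PNX against WT PNX, 1 of 11 was lower, a share no larger than the 11.4% of all genes. That gene was Psmb9, the LMP2 subunit, which stood at 59.3 CPM in M3cKO PNX, against 103 CPM in WT PNX. None of the 11 passed the fold in Foxo1cKO PNX against WT PNX. Of 14 constitutive proteasome subunits, 0 passed the fold in WT PNX against sham and in Foxo1cKO PNX against WT PNX. In M3cKO PNX against WT PNX, Psmb5 alone was lower, at 23.7 CPM in M3cKO PNX and 36.7 CPM in WT PNX.

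Of 8 regulators of class I measured in M3cKO PNX against WT PNX, 2 were higher (Nlrc5 and Irf1) and 0 lower, beside 6.31% and 11.4% of all genes. Nlrc5, the class I transactivator, stood at 20.5 CPM in Foxo1cKO PNX, 32.8 in M3cKO PNX, 20.6 in WT PNX, against 34.2 in sham. These are the same pairs as H2-Q6, with the lower pair close to the filter of 20 CPM. Irf1 stood at 271, 435, 288 and 404 CPM in the same order, again in those pairs, though its ratio in WT PNX against sham, 0.712, lay inside the fold. The other regulators measured did not all have these pairs. Among interferon-gamma-induced genes, 6 of 11 measured were lower and 0 higher in WT PNX against sham, beside 6.50% lower and 9.23% higher over all genes. Igtp, an interferon-inducible GTPase, stood at 65.4 CPM in WT PNX, against 187 CPM in sham.

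Most measured class II genes were lower in WT PNX and higher in M3cKO PNX. Of 7 measured, 6 were lower and 1 higher in WT PNX against sham, beside 6.50% and 9.23% of all genes. Of 6 measured, 5 were higher and 1 lower in M3cKO PNX against WT PNX, beside 6.31% and 11.4% of all genes. H2-Eb1, a class II beta chain, stood at 54.3 CPM in Foxo1cKO PNX, 373 in M3cKO PNX, 60.8 in WT PNX, against 541 in sham. Cd74, the invariant chain of class II, stood at 170.3, 439, 152 and 632 CPM in the same order. It is also one of the B cell markers listed above, whose sum in M3cKO PNX was mostly Igkc. The part of these markers in the class II values was not tested. H2-DMb2, a chain of the class II editor H2-M, ran against the rest, at 22.1 CPM in WT PNX and 5.91 CPM in sham.

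Of 6 other class I-type heavy chains measured, 1 was higher and 1 lower in WT PNX against sham, beside 9.23% and 6.50% of all genes. In M3cKO PNX against WT PNX, 0 of 5 were higher and 3 were lower (Mr1, Fcgrt and Procr), beside 6.31% and 11.4%. Procr, the endothelial protein C receptor, stood at 30.7 CPM in WT PNX, against 8.20 CPM in sham. Cd1d1, which presents lipids, stood at 17.8 CPM in WT PNX, against 30.5 CPM in sham. H2-Q10, known as a secreted liver chain, lay under the filter, with 138 UMIs in Foxo1cKO PNX, 13 in M3cKO PNX, 146 in WT PNX, against 4 in sham. In endothelial cells it split the libraries as H2-D1 did, and so did H2-Q1, H2-Q2 and H2-T24. These genes are named for that after their values were seen. In myeloid cells H2-Q10 ran the other way, at 35.9 CPM in Foxo1cKO PNX, 99.9 in M3cKO PNX, 32.3 in WT PNX, against 81.6 in sham (6 UMIs).

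Most measured genes that lie between the members did not pass the fold. Of 38 measured neighbours on chromosome 17, 4 were higher and 2 lower in WT PNX against sham, near the 9.23% and 6.50% of all genes. Of 39, 7 were higher and 4 lower in M3cKO PNX against WT PNX, beside 6.31% and 11.4% of all genes. Of 34, 0 passed the fold in Foxo1cKO PNX against WT PNX. The neighbours' median log2 ratio was -0.12 in WT PNX against sham, where that of all genes was 0.04, and 0.07 in M3cKO PNX against WT PNX, where that of all genes was -0.12. Both medians lay on the members' side of the median of all genes.

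**Figure D5:**
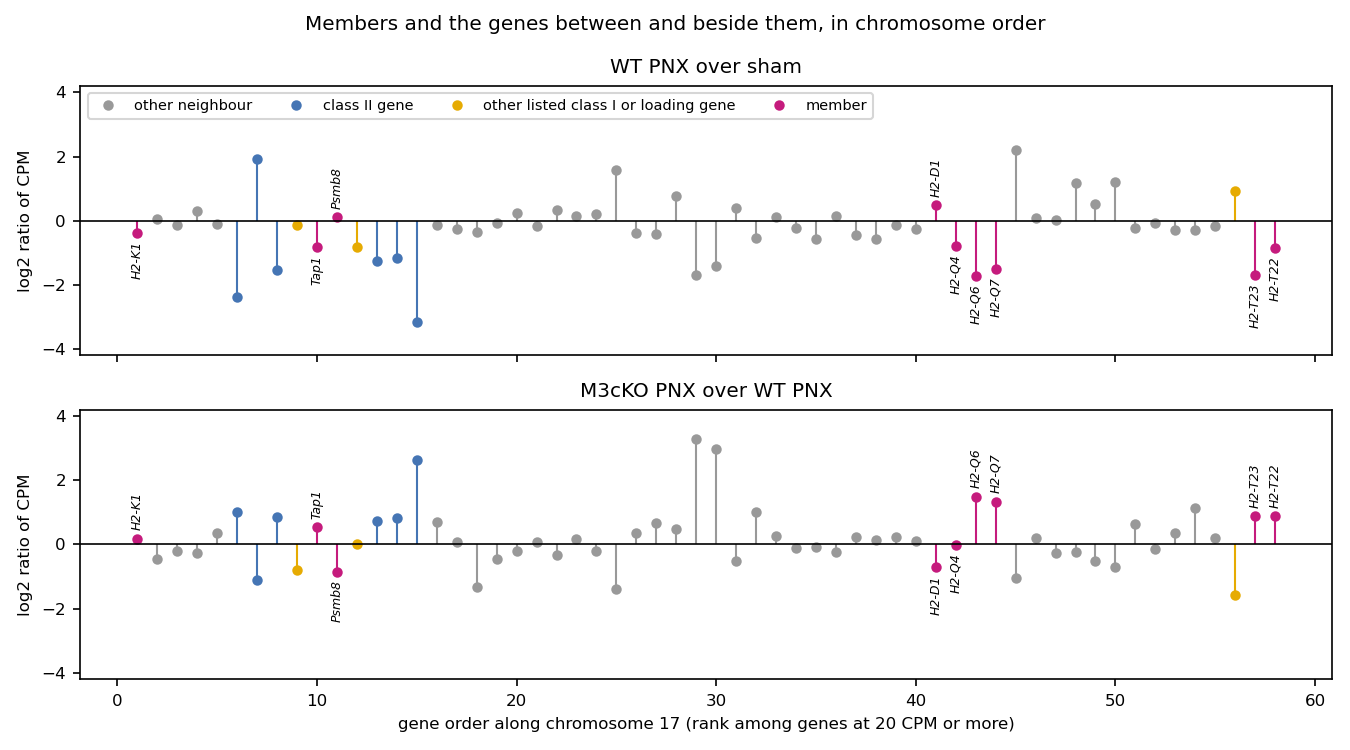
Log2 ratio of CPM for the members and the genes between and beside them on chromosome 17, in chromosome order (horizontal axis, rank among genes at 20 CPM or more), for WT PNX over sham and M3cKO PNX over WT PNX. The members H2-Q6, H2-Q7, H2-T22 and H2-T23 point down in WT PNX over sham and up in M3cKO PNX over WT PNX, while most grey neighbours lie nearer 0 and Hspa1a and Hspa1b do not.

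Inside each library some members also varied with an interferon state of the cell. Cells with 3 or more UMIs of 8 interferon-stimulated genes, none a member, were set against cells with 0, all thinned to 2000 UMIs. Tap1 stood 1.94-fold higher in these cells of Foxo1cKO PNX, 2.05-fold higher in those of M3cKO PNX, 1.99-fold higher in those of WT PNX and 1.52-fold higher in those of sham. Psmb8 stood 1.57-fold, 2.08-fold, 1.56-fold and 1.29-fold higher in the same order. H2-K1 differed less, by ratios of 1.09 to 1.29, and B2m by 1.07 to 1.25. The state held 363 of the thinned cells in Foxo1cKO PNX, 89 in M3cKO PNX, 153 in WT PNX, against 126 in sham. H2-T23 had ratios of 1.20 to 1.39, H2-Q7 of 1.23 to 1.40, H2-Q6 of 1.16 to 1.61 and H2-T22 of 1.07 to 1.84. H2-D1 had ratios of 1.01 to 1.19 and H2-Q4 of 1.04 to 1.15. The interval of H2-Q4 took in 1 in each library. So did those of H2-D1 in Foxo1cKO PNX, of H2-Q6 in WT PNX and of H2-T22 in WT PNX and sham. Without thinning, Tap1, Psmb8, B2m and H2-T22 were again above 1 in each library, but the other members did not all keep their direction. In WT PNX the ratio without thinning was 0.910 for H2-Q7 (0.845 to 0.979), 0.908 for H2-T23 (0.837 to 0.984) and 0.904 for H2-Q6 (0.802 to 1.02). In Foxo1cKO PNX it was 0.931 for H2-D1 (0.916 to 0.946).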

How the data were processed

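Lungs were digested with collagenase, CD45-positive cells were removed and CD31-positive cells kept with beads, and Cell Ranger 2.1.1 aligned the reads to the mm10 genome, per the labels' protocols. The headers of the deposited files carry software version 3.0.0, and R 3.4.4 is named in the submitters' processing notes. The values are UMI counts for each gene in each barcode as the authors deposited them, whole numbers with no normalization. Cells with at least 500 genes and at most 10% mitochondrial UMIs were kept. No doublet caller was run; the gates drop cells that mix endothelial with immune, epithelial or stromal markers, and 11 to 18 cells per library met more than 1 immune or stromal gate. UMIs were summed per library and class and scaled to CPM by the sum. Levels have exact Poisson and ratios exact conditional binomial intervals at 95%; precision follows from the 6492399 to 13691550 UMIs of a sum. Classes needed 20 cells and 20000 UMIs. By the rule for named genes, the members are named in the 3 comparisons; of other lists at most 4 genes with the largest ratios, and the regulators Nlrc5 and Irf1. One result on a listed regulator is not reported here. Members, lists and rules were chosen with earlier results of these data known. Likeness used log2(CPM + 5) and genes at 50 CPM or more. Python 3.11.15 with numpy 2.4.6, scipy 1.17.1, pandas 2.3.3 and matplotlib 3.10.9 was used, with R 4.3.3 and its package edgeR 4.0.16 giving the TMM factors only. Promoters are from RefSeq (GRCm38.p6); all 10 members matched by symbol. The steps were tested on simulated data.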

Additional observations from a re-analysis of the deposited data

Results flagged for a closer look

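In 7 members the female-type over male-type ratio in endothelial cells had opposite directions in the 2 libraries that held both types, with intervals of counting error that do not cross 1. How many of all genes did so was not counted. In Foxo1cKO PNX and in WT PNX, in that order, the ratio was 0.368 and 2.93 for H2-T23, 0.476 and 1.42 for H2-T22, 0.487 and 1.65 for H2-Q6, 0.494 and 1.44 for H2-Q7, 0.669 and 1.16 for Tap1, 0.783 and 1.19 for H2-Q4, and 1.18 and 0.790 for H2-D1. The difference between the libraries was not tested, since each is 1 library.

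In WT PNX against sham, H2-Q7 moved in opposite directions in different classes, which was not tested either. Its ratio was 3.13 in myeloid cells, where sham held 42 cells, against 0.436 in aerocyte-like, 0.340 in gCap-like, 0.270 in arterial-like, 0.231 in venous-like, 0.250 in lymphatic-like and 0.276 in cycling cells, and 0.665 in T cells. For H2-T22 the ratio in T cells was 1.57, with 67 T cells in sham, against 0.524 in gCap-like, 0.420 in venous-like, 0.451 in lymphatic-like and 0.397 in cycling cells. The cause was not tested.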

How the results depend on the processing

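Counts of members past the fold were recomputed with TMM scaling, other filters on cells and genes, thinned cells, reweighted classes, cycling cells left out, gCap-like cells alone and male-type cells alone; female-type cells alone were added after the data were seen. Of 80 recomputed counts, 73 stayed within 1.5 times the reported one. The 80 include a filter of 10 CPM and no filter on low levels. Neither could move a count, since each member passed 20 CPM in every library. At 2-fold, 3 members were lower in WT PNX against sham (H2-Q6, H2-Q7, H2-T23), 2 were higher in M3cKO PNX against WT PNX (H2-Q6, H2-Q7) and 0 were lower. With TMM, 1 member was lower in M3cKO PNX against WT PNX (Psmb8). In male-type cells 1 member, H2-D1, was higher in WT PNX against sham, and 5 were higher in Foxo1cKO PNX against WT PNX. In female-type cells 4 were lower in Foxo1cKO PNX against WT PNX. Of 310 recomputed ratios, 170 stayed within the interval of the reported one and 140 did not. Of the called ratios, 0 changed direction. This could not cover Foxo1cKO PNX against WT PNX, where no member was called. There the ratio of H2-T23 ran from 0.457 in female-type cells to 3.63 in male-type cells. Tap1 in M3cKO PNX against WT PNX passed the fold under 3 of 10 alternatives, and in WT PNX against sham it lay inside the fold at 0.707 with at most 5% mitochondrial UMIs. The causes were not tested. No paired analysis was possible because each group is 1 library. Depth limited the rarer classes: the arterial-like class of M3cKO PNX held 35 cells and the myeloid class of sham 42.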
